A study of Mus musculus with 16 samples.

Results

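The STAT transcription factors Stat2, Stat3, Stat4, Stat5a, Stat5b and Stat6 were followed on the 16 arrays of the study. A probe set, a group of short probes read together as 1 signal, was taken as a member if the array's probe-to-gene table gave it to 1 of these genes alone. This rule found 12 probe sets for 6 genes, of 22690 probe sets on the array, and each was described on its own. 3 of them were for Stat3, 1 was for Stat4, and the other 4 genes had 2 each.

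Total RNA of snap-frozen tissue was hybridised to Affymetrix Mouse Genome 430A 2.0 chips, and each array held 1 sample. 7 arrays held mammary tumours of mice with the STAT5ca transgene, a constitutively active STAT5. 6 held mammary tumours of mice with STAT5Δ750, a STAT5 cut short at its C-terminus, and 3 held normal mammary gland. All the labels give an FVB/N background, and none gives an age, a stage of the gland, a tumour histology, a date or a batch. The promoter of the transgenes, and the Stat5 gene and species they were built from, are not given in the sources used here. Whether a Stat5a or Stat5b probe set also read transgene RNA was not tested. The labels do not say that each array came from a different animal, so p-values measure the spread between these arrays.

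STAT proteins lie inactive in the cytoplasm until a cytokine or hormone receptor brings in a Janus kinase (JAK), which phosphorylates receptor and STAT. Phosphorylated STATs pair, enter the nucleus and bind DNA, and among the genes they switch on are SOCS inhibitors that shut the signal down. In the mammary gland, prolactin acts through Jak2 and STAT5 to drive alveolar growth and milk protein genes, while STAT3 drives cell death and remodelling at involution. STAT6 carries interleukin 4 and 13 signals, STAT2 carries type I interferon signals, and STAT4 carries interleukin 12 signals in T helper 1 and natural killer (NK) cells. Arrays read RNA, not protein or phosphorylation, so the activity of these factors was not measured.

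Values below are the deposited MAS5 signals, a linear brightness of a probe set, and log2 changes are of the signal plus an offset of 7.9. A probe set was tested if its signal was above 35.4 on at least 3 arrays, which 11 of the 12 members and 15718 probe sets in all passed. Array medians were 57.3 to 83.6 in STAT5ca tumours, 72.2 to 81.1 in STAT5Δ750 tumours and 77.2 to 90.7 in glands. Control probe sets at the 3' end of beta-actin read brighter than those at its 5' end when RNA is degraded or incompletely copied, and their ratio was 1.76 to 5.38 in STAT5ca tumours, 1.27 to 3.52 in STAT5Δ750 tumours and 1.07 to 1.25 in glands. STAT5ca_177 stood apart from the other tumours, with a Krt8 signal of 25.3 for this luminal keratin, against 3836.1 to 5375.9 on the other STAT5ca arrays. In the glands the summed signals of 8 skeletal muscle markers (45509.1 to 53162.0) and 7 white fat markers (20138.3 to 23858.3) were above those of every tumour. The tumours' own sums reached 15095.1 for muscle and 8076.7 for fat. Fewer cells of a type and less RNA per cell cannot be told apart in such bulk tissue, here and in every comparison with gland.

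Against gland, the changes that passed were falls: Stat4 in both tumour types and Stat5b in STAT5Δ750 tumours. In STAT5ca tumours 1 of 11 tested members passed (limma, Benjamini-Hochberg adjustment over all tested probe sets, threshold 0.05), where 16.3% of all tested probe sets were called, 5.61% higher and 10.7% lower. In STAT5Δ750 tumours 2 of 11 passed, where 18.7% of all were called, 7.63% higher and 11.1% lower. Between the tumour types 0 of 11 members passed, and 0% of all probe sets did. 883 of the 15718 probe sets had an unadjusted p under 0.05 between the tumour types, among them 1 member, a Stat6 probe set. These counts of members lie near the shares of the whole array.

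**Figure D1:**
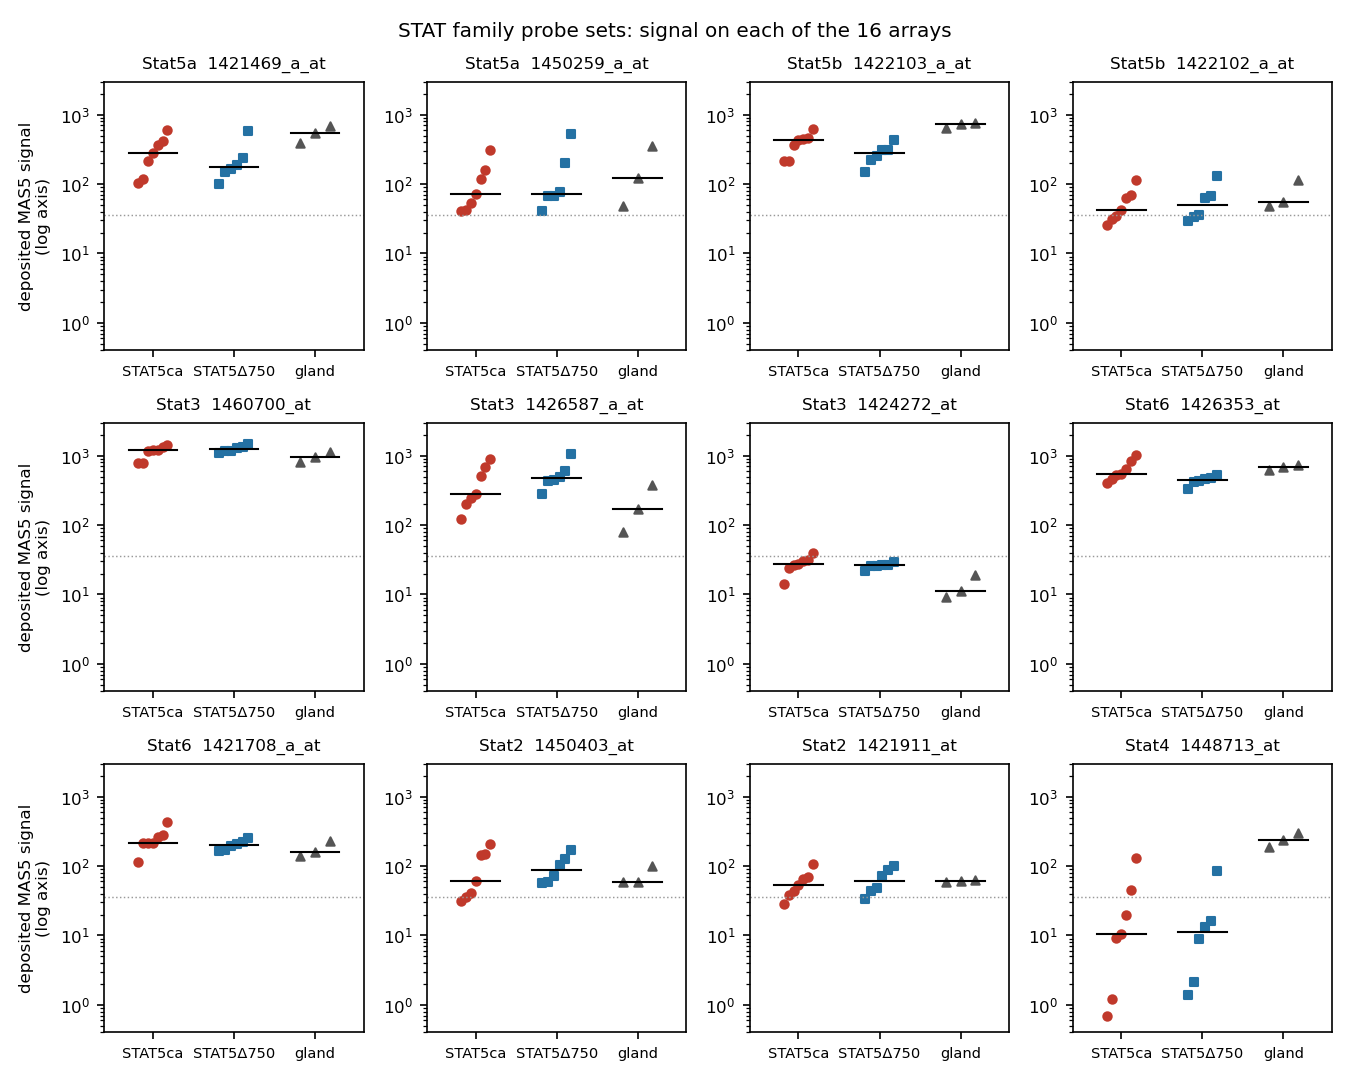
Deposited MAS5 signal (log axis) of the 12 STAT family probe sets, 1 panel each, in 7 STAT5ca tumours (circles), 6 STAT5Δ750 tumours (squares) and 3 glands (triangles), with points in order of value, bars at group medians and a dotted line at the filter of 35.4. All tumours lie below all glands for Stat4 and for Stat5b 1422103_a_at, and all STAT5Δ750 tumours do for Stat6 1426353_at. All STAT5Δ750 tumours lie above all glands for Stat3 1424272_at, where every signal but that of STAT5ca_159 is under the filter.

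Stat5a and Stat5b encode closely related STAT5 proteins. On mouse chromosome 11 the 2 genes and Stat3 are neighbours in the order Stat5b, Stat5a, Stat3 in the RefSeq annotation. The promoter windows of the STAT5 pair (250 bases before to 50 after a RefSeq start, GRCm38.p6) are shown because the genes' signals moved together and the windows share a stretch. Capitals mark that stretch, the best local alignment among the 4 pairs of Stat5a and Stat5b windows. Each printed window is the second of 2 for its gene. The other pairs aligned over only 14 to 24 columns, with scores of 20 to 27 against 98. Whether the stretch bears on the signals was not tested.
Stat5a, chr11:100860234-100860533, plus strand: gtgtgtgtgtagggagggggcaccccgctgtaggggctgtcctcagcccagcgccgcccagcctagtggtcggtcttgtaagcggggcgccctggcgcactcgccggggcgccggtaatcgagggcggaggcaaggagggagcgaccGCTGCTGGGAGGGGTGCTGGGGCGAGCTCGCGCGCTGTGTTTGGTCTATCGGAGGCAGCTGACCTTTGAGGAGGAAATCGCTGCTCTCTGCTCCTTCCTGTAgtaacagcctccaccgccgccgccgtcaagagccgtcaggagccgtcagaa
Stat5b, chr11:100822521-100822820, minus strand: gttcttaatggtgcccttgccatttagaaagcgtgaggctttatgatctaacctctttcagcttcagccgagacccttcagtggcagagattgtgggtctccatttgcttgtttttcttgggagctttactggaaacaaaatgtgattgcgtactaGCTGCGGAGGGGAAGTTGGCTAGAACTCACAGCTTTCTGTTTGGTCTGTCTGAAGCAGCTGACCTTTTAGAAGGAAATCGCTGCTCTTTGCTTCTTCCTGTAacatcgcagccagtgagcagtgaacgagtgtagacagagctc
The aligned stretches are 102 bases long in each gene, at positions -103 to -2 of Stat5a and -94 to 8 of Stat5b counted from the start. They share 83 of 104 aligned columns, an identity of 79.8%, with 17 mismatches and 4 gaps. The palindrome TTCNNNGAA, to which STAT dimers bind, was searched in all windows of the members, and its reverse complement is the same word. It was in 0 of 9 member windows, and in 8.30% of the 32851 promoter windows of the RefSeq table.

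Stat5b was lower in tumours on its brighter probe set. Its signal on 1422103_a_at was 211.5, 435.3 and 630.1 (lowest, median, highest) in STAT5ca tumours. In STAT5Δ750 tumours it was 148.2, 280.1 and 425.1, and the glands had 736.4, 768.8 and 632.0. All 13 tumours lay below all 3 glands, with the highest STAT5ca tumour, STAT5ca_169 at 630.1, just under the lowest gland. In STAT5Δ750 tumours Stat5b fell by 1.41 ± 0.35 on the log2 scale (SE, 6 tumours against 3 glands, adjusted p = 0.0107), to 0.377 of the gland level. Across the alternative settings the adjusted p of this fall ran from 6.16e-05 to 0.0591, and only without gland 4 (-1.35) did the call end. In STAT5ca tumours the change was -0.93 ± 0.34 (adjusted p = 0.0741), which did not pass, and the 95% interval ran from -1.65 to -0.21. It passed without STAT5ca_169, at -1.06 (adjusted p = 0.0377), under quantile normalization (adjusted p = 0.0497) and with array quality weights (adjusted p = 0.00114). With those weights 7554 of 15718 probe sets were called in STAT5ca tumours and 7390 in STAT5Δ750 tumours. A pass with them therefore sets a probe set little apart from the array.

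Stat5a had the same order of group medians on 1421469_a_at. Its signal was 102.6, 283.1 and 609.6 (lowest, median, highest) in STAT5ca tumours and 98.6, 178.6 and 587.0 in STAT5Δ750 tumours. The glands had 540.4, 392.3 and 682.8. 5 of 7 STAT5ca and 5 of 6 STAT5Δ750 tumours lay below all glands, and STAT5ca_123 (609.6), STAT5ca_169 (418.0) and STAT5Δ750_178 (587.0) lay among them. The log2 change was -1.01 ± 0.53 in STAT5ca tumours (adjusted p = 0.220) and -1.35 ± 0.55 in STAT5Δ750 tumours (adjusted p = 0.0966). Neither passed, but without STAT5Δ750_178 Stat5a fell by 1.65 in STAT5Δ750 tumours (adjusted p = 0.0329). With array quality weights both falls passed (adjusted p = 0.0161 and 0.00374), beside the number of calls given above for those weights.

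The second probe set of each STAT5 gene showed wide overlap of the groups. Stat5a 1450259_a_at had signals of 40.4 to 312.2 in STAT5ca tumours, 40.2 to 522.4 in STAT5Δ750 tumours and 48.1 to 358.3 in glands. Its changes were -0.53 ± 0.75 and -0.25 ± 0.77 in STAT5ca and STAT5Δ750 tumours (adjusted p = 0.686 and 0.851). Stat5b 1422102_a_at had 25.7 to 113.5 in STAT5ca tumours, 29.2 to 130.5 in STAT5Δ750 tumours and 48.8 to 112.7 in glands. Its changes were -0.41 ± 0.44 and -0.31 ± 0.45 (adjusted p = 0.583 and 0.667). STAT5Δ750_178 gave the highest tumour signal on both. With the beta-actin ratio as a covariate, the sign of all 4 of these changes turned, to 1.11 and 0.73 for Stat5a and 0.66 and 0.33 for Stat5b, with none called. Every gland had a lower ratio than every tumour, so this fit carries the slope among tumours to glands outside their range, and ratio and tissue cannot be fully told apart in it. The fall on Stat5b 1422103_a_at in STAT5Δ750 tumours was -1.53 in that fit and still passed (adjusted p = 0.0161).

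Stat5a and Stat5b signals rose and fell together among the tumours. Over the 13 tumours, on each gene's brighter probe set, Pearson's r was 0.80 and Spearman's rho 0.85 (permutation p adjusted over 15 pairs of members 0.0176 and 0.0096). The relation was chosen after the data were seen. Without STAT5Δ750_178 and STAT5ca_123, farthest from the median of Stat5a, r was 0.82. Within the 7 STAT5ca tumours r was 0.90 (permutation p = 0.00754), and within the 6 STAT5Δ750 tumours 0.68 (permutation p = 0.133).

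**Figure D2:**
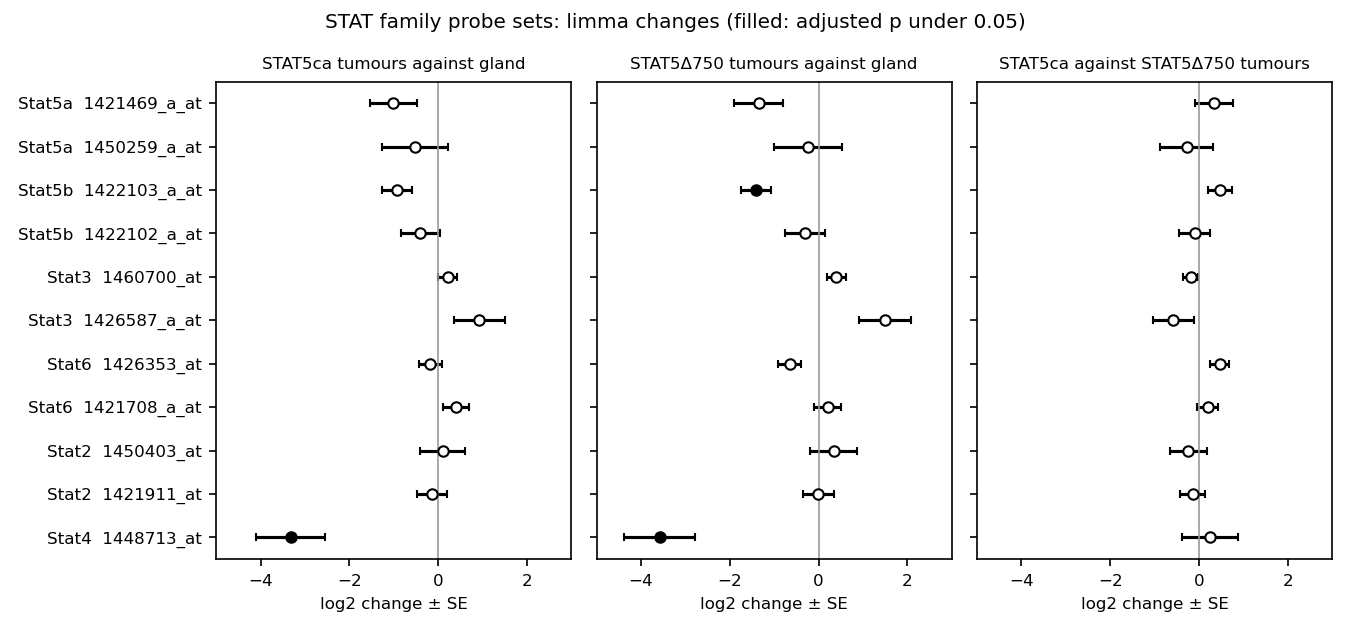
Log2 change ± SE from limma of the 11 tested STAT family probe sets for each tumour type against gland (left, middle) and for STAT5ca against STAT5Δ750 tumours (right); filled points have an adjusted p under 0.05. Stat4 is filled in both comparisons with gland, at -3.33 and -3.58, and Stat5b 1422103_a_at in STAT5Δ750 tumours, at -1.41.

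Stat3, the STAT of interleukin 6 family cytokines, had gland and tumour signals of similar size on its brightest probe set. On 1460700_at the signal was 794.6, 1211.7 and 1413.1 (lowest, median, highest) in STAT5ca tumours and 1107.8, 1242.1 and 1491.6 in STAT5Δ750 tumours. The glands had 802.3, 957.6 and 1128.3. Gland and tumour ranges overlapped, with STAT5ca_124 and STAT5ca_177 just below the lowest gland and STAT5Δ750_178 below the highest. Changes were 0.22 ± 0.21 in STAT5ca tumours (adjusted p = 0.533, 95% interval -0.23 to 0.67) and 0.40 ± 0.22 in STAT5Δ750 tumours (adjusted p = 0.211, interval -0.06 to 0.86). With array quality weights they were 0.46 and 0.54 and passed (adjusted p = 0.0143 and 0.00622), where 7554 and 7390 of all tested probe sets did. With each array scaled to a common median they were 0.51 and 0.53 and did not pass (adjusted p = 0.0860 and 0.0873).

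Stat3 1426587_a_at spread more widely, at 121.3, 277.7 and 890.4 in STAT5ca tumours and 282.2, 469.0 and 1072.4 in STAT5Δ750 tumours. The glands had 172.3, 80.4 and 377.7. 5 of 6 STAT5Δ750 tumours and 3 of 7 STAT5ca tumours were above all glands. The change was 0.92 ± 0.57 in STAT5ca tumours (adjusted p = 0.303) and 1.49 ± 0.59 in STAT5Δ750 tumours (adjusted p = 0.0880). Neither passed, while with the beta-actin ratio as a covariate both did, at 2.40 (adjusted p = 0.0149) and 2.38 (adjusted p = 0.00435), with the limit of that fit given above. With each array scaled to a common median, the STAT5Δ750 change was 1.62 and also passed (adjusted p = 0.0401). Both changes passed with array quality weights too, beside the number of calls given above for those weights.

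The third Stat3 probe set, 1424272_at, was too dim for the filter and exceeded 35.4 only on STAT5ca_159, at 39.8. It had 14.2, 27.8 and 39.8 in STAT5ca tumours, 21.9, 26.3 and 29.1 in STAT5Δ750 tumours and 11.3, 9.3 and 19.3 in glands. 6 of 7 STAT5ca and 6 of 6 STAT5Δ750 tumours were above all glands. With no filter its changes were 0.74 and 0.70 (adjusted p = 0.0297 and 0.0412).

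Stat6 gave opposite signs on its probe sets. On 1426353_at the signal was 397.7, 545.2 and 1023.1 (lowest, median, highest) in STAT5ca tumours and 334.2, 440.9 and 517.3 in STAT5Δ750 tumours. The glands had 628.5, 741.9 and 688.0, above every STAT5Δ750 tumour but within the STAT5ca range. STAT5ca_177 was the highest of all arrays and STAT5ca_123 (831.8) the next. The change in STAT5Δ750 tumours was -0.65 ± 0.26 (adjusted p = 0.0960), and it passed without STAT5ca_177 (adjusted p = 0.0412) and with only these 2 groups in the model (adjusted p = 0.0260). It also passed with array quality weights (adjusted p = 0.00544), where 7390 of all tested probe sets were called. In STAT5ca tumours it was -0.18 ± 0.26 (adjusted p = 0.684), -0.31 without STAT5ca_177, and 0.11 with each array scaled to a common median. On 1421708_a_at the signals were 113.3 to 428.8 in STAT5ca tumours, 162.9 to 255.8 in STAT5Δ750 tumours and 140.2 to 232.8 in glands. The changes there were 0.41 ± 0.30 and 0.21 ± 0.31 (adjusted p = 0.393 and 0.673). The change in STAT5ca tumours passed with array quality weights (adjusted p = 0.0240), where 7554 of all tested probe sets were called.

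None of the 11 tested members had every tumour of a type above every gland. In STAT5ca tumours 2 of 11 tested members had every tumour below every gland, Stat5b 1422103_a_at and Stat4, where 11.3% of all tested probe sets did and 6.20% were all above. In STAT5Δ750 tumours Stat6 1426353_at joined them, which made 3 of 11, against 17.1% of all probe sets below and 14.5% above.

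Stat2 joins IRF9 in the complex that binds interferon response elements. Its promoter window is shown because Stat2 signal followed interferon genes in the tumours, and because it holds the word GAAANNGAAA, a core of such elements. Capitals mark the match, which reads GAAACTGAAA on the other strand.
Stat2, chr10:128270248-128270547, plus strand (RefSeq, GRCm38.p6): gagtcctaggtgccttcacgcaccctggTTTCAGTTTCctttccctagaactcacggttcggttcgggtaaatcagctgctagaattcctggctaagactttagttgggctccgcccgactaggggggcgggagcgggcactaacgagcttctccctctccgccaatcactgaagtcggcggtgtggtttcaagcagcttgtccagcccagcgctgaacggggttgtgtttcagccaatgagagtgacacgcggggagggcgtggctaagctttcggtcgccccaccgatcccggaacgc
The match lies at positions -222 to -213 from the start, and whether it bears on the Stat2 signal was not tested. On both strands, GAAANNGAAA was in 2 of 9 member windows, those of Stat2 and 1 of the Stat4 windows, and in 3.44% of the 32851 windows of the table. The STAT6-type spacing TTCNNNNGAA was in 1 of 9, again Stat2, and in 6.95% of all windows.

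Stat2 did not pass in either tumour type. On 1450403_at its signal was 31.6, 61.2 and 205.6 (lowest, median, highest) in STAT5ca tumours, 57.1, 87.7 and 170.1 in STAT5Δ750 tumours, and 58.5, 59.5 and 98.4 in glands. STAT5ca_159, STAT5ca_169 and STAT5ca_171 were above all glands and STAT5ca_123, STAT5ca_124 and STAT5ca_213 below them. The 3 low arrays had the highest beta-actin ratios of all 16, at 3.72, 5.38 and 5.23, against 1.79, 2.53 and 1.76 on the 3 high arrays. Changes were 0.10 ± 0.51 and 0.34 ± 0.52 in STAT5ca and STAT5Δ750 tumours (adjusted p = 0.925 and 0.688). With the beta-actin ratio as a covariate they were 1.25 and 1.03 (adjusted p = 0.165 and 0.142), with the same limit as above and neither called. On 1421911_at the 3 glands were within 59.2 to 63.4, while STAT5ca tumours spanned 28.7 to 107.7 and STAT5Δ750 tumours 33.5 to 101.4. The changes there were -0.15 ± 0.34 and -0.01 ± 0.35 (adjusted p = 0.821 and 0.992).

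Among the tumours, Stat2 followed the interferon genes. Over the 13 tumours the log2 signal of 1450403_at correlated with the mean of 11 genes of the type I interferon response at r = 0.75 and rho = 0.68. The permutation p, adjusted over 6 relations of members, was 0.0122 and 0.0417. Without STAT5Δ750_165 and STAT5ca_169 r was 0.65 (permutation p = 0.0309). The arrays with the highest beta-actin ratios were also among those with the least Stat2, and the part of RNA quality in this relation was not tested. The relation was 0.82 within STAT5ca tumours (permutation p = 0.0331) and 0.71 within STAT5Δ750 tumours (permutation p = 0.115). Against gland, 0 of the 11 interferon genes passed in either tumour type by limma (4 and 2 had an unadjusted p under 0.05), with median log2 changes of 1.17 and 1.37 beside 0.01 and 0.05 for all probe sets. Oas1a, a sensor of double-stranded RNA, had 254.2, 819.9 and 1909 in STAT5ca tumours, 137.7, 656.5 and 1597 in STAT5Δ750 tumours and 183.0 to 227.2 in glands. Its changes were 1.87 ± 0.63 and 1.48 ± 0.65 (adjusted p = 0.0535 and 0.124). Irf9, the partner of STAT2, was at 0.59 ± 0.38 and 0.30 ± 0.39 (adjusted p = 0.317 and 0.621).

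**Figure D3:**
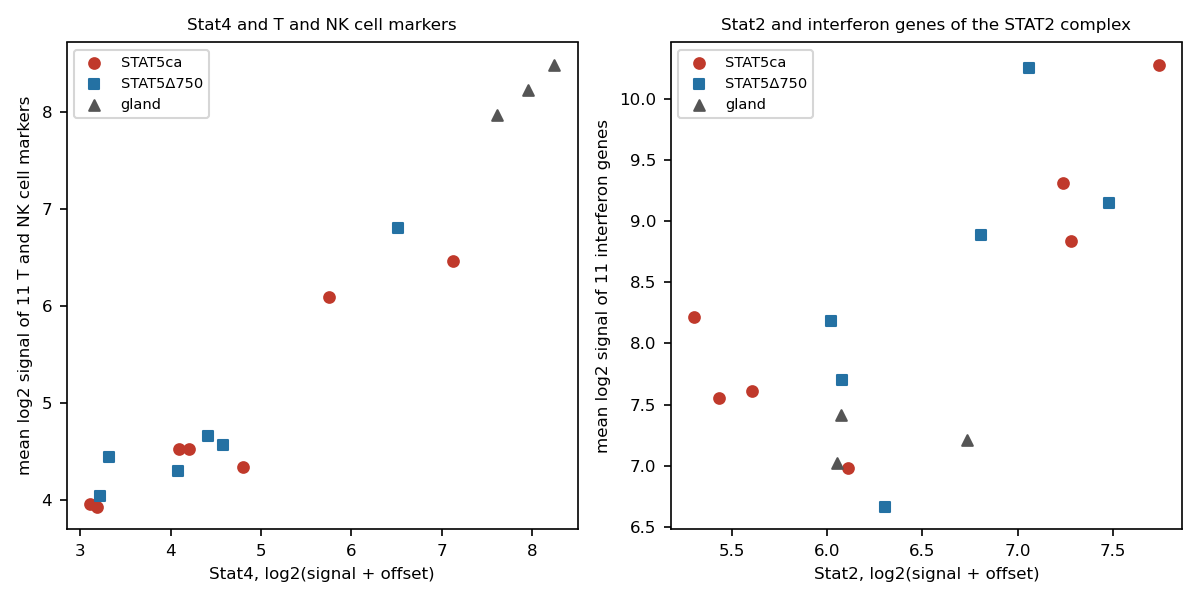
Left, log2(signal + offset) of Stat4 on the x axis against the mean log2 value of 11 T and NK cell markers; right, Stat2 1450403_at against the mean of 11 interferon genes; circles are 7 STAT5ca tumours, squares 6 STAT5Δ750 tumours and triangles 3 glands. The 3 tumours with the most Stat4 also have the highest marker means among tumours, and the glands lie above them on both axes.

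Stat4, which T helper 1 and NK cells need to respond to interleukin 12, had the largest change of the family. Its signal on 1448713_at was 0.7, 10.5 and 131.4 (lowest, median, highest) in STAT5ca tumours and 1.4, 11.2 and 83.8 in STAT5Δ750 tumours. The glands had 239.5, 296.1 and 187.0. Every tumour was below every gland, and only STAT5ca_177 (131.4), STAT5Δ750_254 (83.8) and STAT5ca_124 (45.8) were above the filter of 35.4. Stat4 fell by 3.33 ± 0.78 on the log2 scale in STAT5ca tumours (7 tumours against 3 glands, adjusted p = 0.00819). In STAT5Δ750 tumours it fell by 3.58 ± 0.80 (6 against 3, adjusted p = 0.00602). The size of these falls depends on the offset, since 10 tumours had signals below the filter: it was -4.21 and -4.47 with an offset of 1, and -2.25 and -2.41 with an offset of 35.4. With signals under the filter raised to 35.4, Stat4 was at least 4.64-fold lower in STAT5ca tumours and at least 4.99-fold lower in STAT5Δ750 tumours. The STAT5ca call ended without gland 4 (-3.17, adjusted p = 0.0515) and with the beta-actin ratio as a covariate (-3.11, adjusted p = 0.0814). The STAT5Δ750 call held in all 28 alternatives that tested it, with adjusted p from 2.74e-05 to 0.0403.

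Markers of T and NK cells moved with Stat4. The summed signal of 11 markers was 115.5, 194.5 and 1531.4 (lowest, median, highest) in STAT5ca tumours and 132.0, 223.5 and 1383.3 in STAT5Δ750 tumours. It was 3871.5, 4738.2 and 3082.4 in the glands. STAT5ca_177 (1531.4), STAT5Δ750_254 (1383.3) and STAT5ca_124 (799.7) were the highest tumours here as they were for Stat4, and the next had 238.1. Of the 11 markers, 9 fell in STAT5ca tumours and 10 in STAT5Δ750 tumours, where 10.7% and 11.1% of all probe sets were called lower. Among them were the T cell receptor chains Cd3e, Cd3g and Cd3d. Cd2, Cd5, Cd28 and Cd8a had 6 of 7 STAT5ca and 5 of 6 STAT5Δ750 tumours under the filter, and Cd247 had 7 and 5. These markers were tested only through the glands, where they were high. Zap70 did not pass, at -0.40 ± 0.33 and -0.05 ± 0.34 (adjusted p = 0.449 and 0.93). Cd3g had medians of 31.7 and 23.1 in STAT5ca and STAT5Δ750 tumours, against 545.1 to 874.9 in glands. Of 5 B cell markers, 4 fell in STAT5ca tumours and 5 in STAT5Δ750 tumours, and Cd79a and Ms4a1 among them were also tested only through the glands. The part of these cells in the Stat4 result was not tested.

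Over the 13 tumours, Stat4 correlated with the mean log2 value of the 11 markers at r = 0.94 and rho = 0.89 (permutation p adjusted over 6 relations 0.0003 and 0.00054). Without STAT5Δ750_254 and STAT5ca_177, farthest from the median of Stat4, r was 0.85 (permutation p = 0.00103). Within STAT5ca tumours r was 0.95 (permutation p = 0.00218) and within STAT5Δ750 tumours 0.94 (permutation p = 0.0181). The 3 genes most alike to Stat4 over the 16 arrays by Pearson's r were Nkg7 at 0.98, a cytotoxic granule gene that is also among the markers, Cst7 at 0.97 and Ptpn22 at 0.97, a phosphatase of T cell receptor signalling. Over the 13 tumours Nkg7 and Stat4 had r = 0.95.

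Other genes of STAT4 signalling and of T helper 1 and NK cells fell too. Of 9 listed, 5 passed the filter. 4 of them fell in STAT5ca tumours and 3 in STAT5Δ750 tumours, where 10.7% and 11.1% of all probe sets were called lower. Among these falls, Tbx21 and Prf1 were tested only through the glands. Median log2 changes over the 5 were -2.90 and -2.28, or -1.25 and -1.53 with Tbx21 at the bound given next. Tbx21, the master regulator of T helper 1 cells, had 1.5, 4.2 and 15.2 in STAT5ca tumours, 0.5, 7.3 and 31.1 in STAT5Δ750 tumours and 76.6 to 132.0 in glands. Only the 3 glands were above the filter, so the size of its fall (adjusted p = 0.000199 and 0.000487) is known only as a bound. With signals under 35.4 raised to that value, Tbx21 was at least 2.38-fold lower in each tumour type. This rule for a bound, chosen after the data were seen, is used below for Prf1 and Mgl2, and wherever a named gene that fell had every tumour of a type under the filter. Il18r1, a receptor chain for interleukin 18, fell, at -3.24 ± 0.49 and -2.28 ± 0.50 (adjusted p = 0.000302 and 0.00554). Ccl5, a chemokine of T cells, fell, at -3.90 ± 0.84 and -4.33 ± 0.86 (adjusted p = 0.0047 and 0.00281). Prf1, the pore-forming perforin, passed as lower in STAT5ca tumours, at -1.06 ± 0.35 (adjusted p = 0.0486), and was -0.99 ± 0.36 in STAT5Δ750 tumours (adjusted p = 0.0634). Its glands had only 35.7 to 42.1, and 6 of 7 STAT5ca tumours were under the filter, with the highest at 43.8. With signals under 35.4 raised to that value, its fall in STAT5ca tumours was only 1.05-fold. Gzmb, granzyme B, did not pass, at -0.76 ± 0.69 and -1.53 ± 0.71 (adjusted p = 0.502 and 0.145).

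STAT5ca tumours, with the active transgene, were compared directly with STAT5Δ750 tumours, with the truncated transgene. None of the 11 tested members passed by limma, and 0 of 11 had groups that did not overlap, where 0.0636% of all probe sets were all higher in STAT5ca and 0.0827% all lower. Stat6 1426353_at had the smallest p, at 0.47 ± 0.21 (unadjusted p = 0.0380, adjusted p = 0.859), with 5 of 7 STAT5ca tumours above all 6 STAT5Δ750 tumours and an interval of 0.03 to 0.90. Without STAT5ca_177 this difference was 0.34. The difference was 0.48 ± 0.27 for Stat5b 1422103_a_at (adjusted p = 0.861, interval -0.10 to 1.06) and 0.34 ± 0.43 for Stat5a 1421469_a_at (adjusted p = 0.924, interval -0.58 to 1.25). For Stat3 1460700_at it was -0.18 ± 0.17 (adjusted p = 0.894, interval -0.55 to 0.18). For Stat4 it was 0.25 ± 0.63 (adjusted p = 0.966), with the widest interval of these, -1.09 to 1.59. These intervals do not show that the tumour types were alike.

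The probe sets of a gene moved together from tumour to tumour for Stat2, Stat3 and Stat5a, and the relation did not pass for Stat5b and Stat6. For Stat5b the brighter and dimmer probe sets correlated at r = 0.34 (permutation p adjusted over 5 genes 0.254) over the 13 tumours. For Stat6 r was 0.36 (0.254), for Stat5a 0.68 (0.0168), for Stat3 0.75 (0.00593) and for Stat2 0.82 (0.00545). The difference in log2 signal between them followed the beta-actin 3'/5' ratio of the array, a relation looked at after the data were seen. For Stat5b it ran from -3.72 to -1.65 over the tumours and correlated with the log2 ratio at r = -0.90 and rho = -0.96, with a permutation p for rho of 1e-05, the smallest these resamples can give. Stat5a had r = -0.90, Stat3 -0.89 and Stat6 -0.78, while Stat2 had the opposite sign, 0.71. Adjusted over the 5 genes, the permutation p of r was 0.0001 for Stat5b, 0.000125 for Stat5a, 0.00015 for Stat3, 0.00153 for Stat6 and 0.00588 for Stat2. Spearman's rho was -0.93 for Stat5a, -0.93 for Stat3, -0.76 for Stat6 and 0.80 for Stat2. Without STAT5ca_213 and STAT5ca_124, the arrays with the highest ratios, r was -0.86 for Stat5b, -0.88 for Stat5a, -0.87 for Stat3, -0.77 for Stat6 and 0.71 for Stat2. Within STAT5ca tumours r was -0.90 for each of Stat5a, Stat5b and Stat3, -0.78 for Stat6 and 0.76 for Stat2. Within STAT5Δ750 tumours it was -0.86, -0.84, -0.86, -0.76 and 0.74 in the order Stat5a, Stat5b, Stat3, Stat6 and Stat2. The glands, with ratios of 1.07 to 1.25, differed from the tumours of nearest ratio in all 5 genes, and no line was fitted. STAT5Δ750_165 and STAT5Δ750_178, the tumours with the lowest ratios (1.27 and 1.33), had Stat5b differences of -1.68 and -1.65, against -3.78 to -2.41 in glands. For Stat5a these tumours had 0.06 and -0.17, against -2.84 to -0.92 in glands. For Stat3 they had -0.47 and -0.88, against -3.45 to -1.56, and for Stat6 -0.56 and -0.89, against -2.19 to -1.53. For Stat2, where the difference rises with the ratio, they had -0.89 and -0.93, against -0.58 to 0.03 in glands. The positions of the probes in the transcripts are not given in the sources used here.

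**Figure D4:**
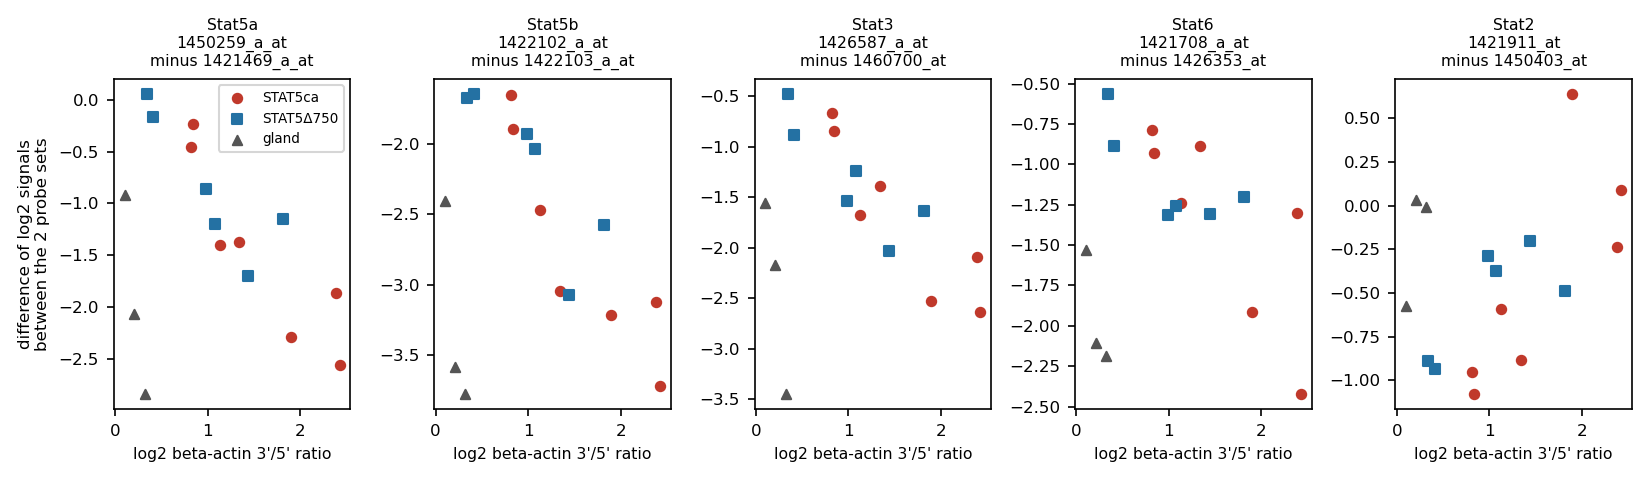
Difference in log2 signal between the dimmer and the brighter probe set of Stat5a, Stat5b, Stat3, Stat6 and Stat2 (y axis, own scale in each panel) against the log2 beta-actin 3'/5' ratio of the array (x axis), for 7 STAT5ca tumours (circles), 6 STAT5Δ750 tumours (squares) and 3 glands (triangles). Among tumours the difference falls with the ratio for Stat5a, Stat5b, Stat3 and Stat6 (r from -0.90 to -0.78) and rises for Stat2 (r = 0.71).

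Of the kinases that activate the STATs, Jak1 fell in both tumour types and Jak2 and Tyk2 in STAT5Δ750 tumours. Of the 4 Janus kinases, 1 fell in STAT5ca and 3 in STAT5Δ750 tumours, where 10.7% and 11.1% of all probe sets were called lower. Their median changes were -0.80 and -1.08. Jak1, used by interferon and interleukin 6 family receptors, had 338.8, 403.6 and 566.8 in STAT5ca tumours, 272.9, 345.7 and 528.5 in STAT5Δ750 tumours and 811.9 to 1057.6 in glands. It fell by 1.12 ± 0.22 in STAT5ca tumours (adjusted p = 0.00217) and fell by 1.34 ± 0.22 in STAT5Δ750 tumours (adjusted p = 0.00074). Jak2, the kinase of the prolactin receptor, fell by 1.06 ± 0.28 in STAT5Δ750 tumours (adjusted p = 0.0145) and was -0.74 ± 0.27 in STAT5ca tumours (adjusted p = 0.0755). Tyk2, which serves interferon and interleukin 12 receptors, fell by 1.09 ± 0.29 in STAT5Δ750 tumours (adjusted p = 0.0175).

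Receptors that signal through STATs showed falls and no rise that passed. Of 16 tested, 7 fell in STAT5ca tumours and 8 in STAT5Δ750 tumours, where 10.7% and 11.1% of all probe sets were called lower. The medians of the 16 were -0.90 and -1.02. 2 of the falls in STAT5ca tumours, of Lepr and Il2rb, had every tumour under the filter, and with both at their bound that median was -0.80. Il2rb, which fell in both tumour types, also had 5 of 6 STAT5Δ750 tumours under the filter and was tested only through the glands. Lifr, the leukaemia inhibitory factor receptor, which acts on STAT3, fell, at -3.34 ± 0.57 and -2.74 ± 0.59 in STAT5ca and STAT5Δ750 tumours (adjusted p = 0.000849 and 0.00467). Il6st, the shared chain of interleukin 6 family receptors, fell, at -1.98 ± 0.45 and -1.69 ± 0.46 (adjusted p = 0.00698 and 0.0196). Ghr, the growth hormone receptor, which acts on STAT5, fell, at -2.27 ± 0.51 and -1.64 ± 0.52 (adjusted p = 0.00604 and 0.0379). Il7r, a lymphocyte receptor that acts on STAT5, fell, at -3.42 ± 0.67 and -3.45 ± 0.69 (adjusted p = 0.00223 and 0.00275). Il4ra, the receptor chain upstream of STAT6, did not pass, at -0.61 ± 0.49 and -0.38 ± 0.50 (adjusted p = 0.435 and 0.629). Some of these receptors are expressed in fat, endothelium or lymphocytes, whose marker lists were also lower. 7 of 7 white fat markers fell in both tumour types, as did 4 of 6 endothelial markers, and their part in these falls was not tested. Of the fat markers, Lep and Cidec were tested only through the glands.

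Of 14 inhibitors of the pathway tested, 1 rose and 0 fell in STAT5ca tumours, where 5.61% of all probe sets were called higher and 10.7% lower. In STAT5Δ750 tumours 3 rose and 1 fell, where 7.63% of all were called higher and 11.1% lower. Pias4, which attaches SUMO to proteins and restrains STATs, rose by 0.82 ± 0.26 and 1.08 ± 0.27 (adjusted p = 0.0464 and 0.0119). In STAT5Δ750 tumours Pias2 rose by 0.95 ± 0.27 and Socs5 by 0.99 ± 0.32 (adjusted p = 0.0215 and 0.0423), and Pias3, an inhibitor of STAT3, fell by 0.75 ± 0.23 (adjusted p = 0.0302). The feedback inhibitors Cish, Socs2 and Socs3 did not pass. Cish had 51.2, 212.9 and 335.7 in STAT5ca tumours, 106.1, 205.9 and 328.5 in STAT5Δ750 tumours and 214.6 to 401.5 in glands, with changes of -0.64 ± 0.50 and -0.38 ± 0.51 (adjusted p = 0.424 and 0.633). Socs2 had 112.0, 222.2 and 3392 in STAT5ca tumours, 145.1, 1058 and 2921 in STAT5Δ750 tumours and 318.2 to 489.6 in glands, so its tumours lay on both sides of the glands. Socs3 was at -0.70 ± 0.58 in STAT5ca tumours (adjusted p = 0.458) and at -0.00 ± 0.60 in STAT5Δ750 tumours (adjusted p = 0.999).

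The level of a STAT did not track its feedback gene firmly among the 13 tumours. Stat5a with Cish had r = 0.61 and rho = 0.60 (permutation p adjusted over 6 relations 0.054 and 0.0672), and r = 0.50 without STAT5Δ750_178 and STAT5ca_123. It was 0.75 within STAT5ca tumours and 0.51 within STAT5Δ750 tumours. Stat5b with Socs2 had r = -0.04 and rho = 0.07 (adjusted permutation p = 0.903 and 0.820), with 0.69 within STAT5ca and -0.64 within STAT5Δ750 tumours, and -0.11 without STAT5Δ750_160 and STAT5ca_169. Stat3 with Socs3 had r = 0.13 and rho = 0.13 (adjusted permutation p = 0.816 and 0.820), with -0.33 within STAT5ca and 0.71 within STAT5Δ750 tumours, and 0.23 without STAT5ca_124 and STAT5ca_177. Stat6 with the mean of 8 macrophage markers had r = 0.39 and rho = -0.08 (adjusted permutation p = 0.273 and 0.820). That r was -0.25 without STAT5ca_123 and STAT5ca_177, so its sign rests on those arrays, and it was 0.51 within STAT5ca and -0.48 within STAT5Δ750 tumours.

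STAT5 target genes passed about as often as probe sets of the whole array. Of 15 STAT5 targets of mammary epithelium, 1 rose and 2 fell in each tumour type. Over all probe sets, 5.61% were called higher and 10.7% lower in STAT5ca tumours, and 7.63% and 11.1% in STAT5Δ750 tumours. The falls were in Tnfsf11 and Igf1. Tnfsf11, the cytokine RANKL, had signals of 4.4 to 29.7 in STAT5ca tumours, 4.5 to 34.8 in STAT5Δ750 tumours and 64.2 to 211.8 in glands, so it was tested only through the glands (adjusted p = 0.000604 and 0.0016). It was at least 2.83-fold lower in each tumour type. Igf1, a growth factor, fell, at -2.37 ± 0.41 and -2.21 ± 0.42 (adjusted p = 0.000906 and 0.00212). The rise was Ccnd1, cyclin D1 of the cell cycle, by 2.58 ± 0.68 and 2.21 ± 0.70 (adjusted p = 0.0165 and 0.0386). The milk gene Csn2, beta-casein, did not pass, at -1.01 ± 0.78 and 0.03 ± 0.80 (adjusted p = 0.416 and 0.981). Wap, whey acidic protein, spread from 22.4 to 3282 in STAT5ca tumours, 16.4 to 9116 in STAT5Δ750 tumours and 31.1 to 7606 in glands. Elf5, the transcription factor of alveolar cells, was 7.8, 3036 and 4381 in STAT5ca tumours, 518.4, 2749 and 4849 in STAT5Δ750 tumours and 768.7 to 2586 in glands.

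Of 12 STAT3 targets, 2 rose and 1 fell in STAT5Δ750 tumours, and STAT5ca tumours had 1 rise. Among all probe sets, 7.63% were called higher and 11.1% lower in STAT5Δ750 tumours, and 5.61% and 10.7% in STAT5ca tumours. Timp1, an inhibitor of matrix proteases, rose by 2.00 ± 0.63 and 2.33 ± 0.65 (adjusted p = 0.0406 and 0.0206). In STAT5Δ750 tumours Myc rose by 1.16 ± 0.34 and Mcl1, a survival factor, fell by 0.97 ± 0.24 (adjusted p = 0.0252 and 0.0106). Of 8 STAT6 targets and genes of alternatively activated macrophages, 1 rose and 3 fell in each tumour type. Retnla fell, at -4.06 ± 0.94 and -3.80 ± 0.97 (adjusted p = 0.00762 and 0.013). Pdcd1lg2, a ligand of the PD-1 receptor, passed as lower (adjusted p = 0.00797 and 0.00883), but its tumours reached only 22.9 and 26.4 and its glands only 35.5 to 48.0. It was tested only through the glands and was at least 1.18-fold lower in each tumour type. Mgl2, a macrophage lectin, passed as lower in both tumour types (adjusted p = 0.0121 and 0.0443), but its glands had only 25.5 to 52.9. In STAT5ca tumours 6 of 7 were under the filter, and in STAT5Δ750 tumours Mgl2 reached only 18.8. With signals under 35.4 raised to that value, the falls were only 1.14-fold in STAT5ca and 1.15-fold in STAT5Δ750 tumours. Arg1, arginase 1, rose by 2.90 ± 0.91 and 2.82 ± 0.94 (adjusted p = 0.0404 and 0.0469). Of 8 macrophage markers, 0 passed in STAT5ca tumours by limma (2 at an unadjusted p under 0.05) and 1 in STAT5Δ750 tumours, Csf1r, which fell.

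The genes most alike to each member in log2 signal over the 16 arrays were as follows, with Pearson's r as a description of points that share arrays and groups. Stat5a was most like Fn3k (0.84), Itga2b (0.82) and Auh (0.81), and had r = 0.83 with Stat5b. Stat5b was most like Aamdc, Exd2 and Dmac2l, all at 0.91. Stat3 was most like Mrpl45 (0.90), Zc3h18 (0.88) and Skp1 (0.87), and Stat6 like Extl3 (0.94), Nbeal2 (0.93) and Pi4ka (0.91). Stat2 was most like Zswim6 (0.88), Eif2ak2 (0.87), the interferon-induced kinase that stops translation, and Adar (0.84), an RNA-editing enzyme with an interferon-induced form.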

How the data were processed

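RNA of 16 samples, 1 array each, was hybridised to Affymetrix Mouse Genome 430A 2.0 chips. The deposited values are linear MAS5 signals, an intensity for each probe set, per the submitters' processing notes, which name MAS5 without a version. Genes were named from the platform's probe-to-gene table. Of 22690 probe sets, 20393 carried 1 symbol. The 64 control probe sets were left out of the tests. No column of other samples was used.

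The deposited scaling was kept: array medians lie among dim probe sets, and scaling to a common median moved the median change of all probe sets to 0.28 in STAT5ca and 0.17 in STAT5Δ750 tumours against gland, from 0.01 and 0.05. An offset of 7.9, the 20th percentile of all values, was added before taking log2, and probe sets were kept if above 35.4, the 40th percentile, on at least 3 arrays. limma 3.58.1 in R 4.3.3 fitted the 3 groups in 1 model, with two-sided p-values adjusted by Benjamini-Hochberg over 15718 probe sets. Errors of changes are standard errors. Correlations used 100000 two-sided permutations.

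Tested on simulated data over the 15718 probe sets, 2-fold changes were recovered in 22.0%, 18.7% and 39.3% and 4-fold changes in 64.0%, 68.3% and 75.7% of cases for STAT5ca against gland, STAT5Δ750 against gland and STAT5ca against STAT5Δ750. False calls were 5.09%, 5.84% and 4.11%. Only a small share of the simulated probe sets was changed, while 16.3% and 18.7% were called in the real comparisons with gland. Between the tumour types 0% were called. Recovery under the Benjamini-Hochberg adjustment depends on that share, so these rates do not carry over to the comparisons with gland or between the tumour types. The number of arrays limits the precision.

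Members and gene lists were chosen with earlier results of these data known. Named genes are all members, the 3 genes most alike to each, and from each pathway list up to 4 genes of smallest adjusted p per comparison, with a few named whatever they did. A gene of a list was its probe set of highest mean. Alternatives were median and quantile scaling, offsets, filters, 1 probe set per gene, limma with trend, array weights, only the groups compared, the beta-actin or Gapdh ratio as a covariate, and leaving out each array. Promoter sequences are from RefSeq (GRCm38.p6).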

Additional observations from a re-analysis of the deposited data

How the results depend on the processing

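No paired analysis was possible because the groups share no replicate numbers in the labels. Under all alternatives 0 members passed between the tumour types. Probe sets called in STAT5ca tumours against gland numbered 2565, with 7554 under array quality weights, 1682 with the beta-actin ratio as a covariate, and 1268 to 4050 when 1 array was left out. The lowest came without gland 4, 1428 without gland 1, and the highest without STAT5ca_177. For STAT5Δ750 tumours the count was 2938, with 7390 under weights and 1279 to 3969 without 1 array, where gland 4 gave the lowest and gland 1 1561. Between the tumour types it was 0, and 0 to 1 without 1 array, the 1 without STAT5ca_123. Members called in STAT5ca tumours numbered 1, with 2 under quantile normalization, 2 with no filter, 6 under weights, and 0 to 2 without 1 array (0 without gland 4, 2 without STAT5ca_169). In STAT5Δ750 tumours they numbered 2, with 6 under weights, 4 with only the 2 groups, and 1 to 3 without 1 array (1 without gland 4). The causes were not tested. In STAT5ca tumours the calls split into 881 higher and 1684 lower, 2049 and 1233 under median scaling, and 1420 and 1577 under quantile normalization. In STAT5Δ750 tumours the split was 1199 and 1739, 1540 and 1338 under median scaling and 1628 and 1752 under quantile normalization. Of single members' changes, 882 kept their side of the threshold, 18 came to pass and 3 ceased to, and no called change turned its sign. The correlation of Stat5a with Cish was 0.54 to 0.68 without 1 array, and its unadjusted p rose above 0.05 without STAT5ca_123, STAT5ca_171, STAT5ca_177 or STAT5Δ750_178. The other ranges were 0.92 to 0.96 for Stat4 with T and NK markers, 0.68 to 0.81 for Stat2 with interferon genes, -0.36 to 0.22 for Stat5b with Socs2, -0.04 to 0.29 for Stat3 with Socs3 and -0.43 to 0.61 for Stat6 with macrophage markers. Most tumour signals of Stat4, and all signals of Stat3 1424272_at but 1, lay under the filter, which limits what their folds can show. For Stat4 it also limits what its correlations among tumours can show.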

Other observations

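Among the other 14 pairs of members, correlated over the 13 tumours on each gene's brighter probe set after the data were seen, none had an adjusted permutation p under 0.05. Stat3 and Stat6 had r = -0.76 and rho = -0.68 (permutation p adjusted over 15 pairs 0.0506 and 0.0635), and r = -0.58 without STAT5ca_124 and STAT5ca_177. That r was -0.72 within STAT5ca and -0.78 within STAT5Δ750 tumours. Stat6 and Stat2 had r = -0.66 and rho = -0.71 (adjusted permutation p = 0.0625 and 0.0635), with -0.67 within STAT5ca and -0.81 within STAT5Δ750 tumours, and -0.70 without STAT5ca_123 and STAT5ca_177. Stat3 and Stat2 had r = 0.59 and rho = 0.65 (adjusted permutation p = 0.0846 and 0.0694), with 0.51 within STAT5ca and 0.91 within STAT5Δ750 tumours, and 0.70 without STAT5ca_124 and STAT5ca_177. Stat4 and Stat5a had r = -0.44 and rho = -0.59 (adjusted permutation p = 0.318 and 0.113). No array of a group of 4 to 10 stood apart from its group on any of the 12 probe sets in the 24 groups looked at by Dixon's criterion at 95%.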
